A study of Homo sapiens with 4 samples.

Results

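The ligand-activated transcription factors of myeloid differentiation were examined in THP1 cells after MLL-AF9 knockdown. Members were chosen by gene name: the vitamin D receptor VDR, the aryl hydrocarbon receptor AHR with its partner ARNT, the retinoid X receptors RXRA and RXRB, the retinoic acid receptors RARA and RARG, the peroxisome proliferator-activated receptors PPARG and PPARD, and the liver X receptor NR1H3. The choice was made with earlier results of these data known. All probes on the array that carry one of these names were used. This gave 14 probes for 10 genes, out of 26219 analysed probes and 20654 gene names. All 14 probes were well above background on all 4 arrays and none was left out.

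THP1 is an established line of acute monocytic leukemia (AML M5) that carries the MLL-AF9 fusion, so that knockdown and control cells alike keep the fusion gene in their genome. Knockdown cells received siRNA3 or siRNA4, and control cells received non-targeting siRNA1 or siRNA2. Cells were transfected on days 0, 3 and 6 and harvested on day 8, all of them in serum-reduced medium from day 6 onwards. Each of the 4 arrays held RNA pooled from 5 experiments, so that the spread within a group of 2 arrays is that between pools and siRNAs and not between single cultures. On the shared slide the knockdown arrays took positions 1 and 2 and the controls positions 3 and 4, and an effect of position cannot be told apart from that of the treatment. With 2 arrays in each group an exact permutation test (two-sided) could not go below 0.333. The moderated test of limma can go lower because it assumes a distribution of the values.

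Most of these factors are nuclear receptors, which bind DNA and switch transcription in response to a small lipid-soluble ligand. VDR, the RARs, the PPARs and NR1H3 act as heterodimers with an RXR, whereas AHR belongs to another protein family and pairs with ARNT once a ligand has released it from its chaperones in the cytoplasm. In myeloid cells the active form of vitamin D drives monocytic and retinoic acid granulocytic differentiation, PPARG and NR1H3 govern lipid handling in macrophages, and AHR senses environmental and tryptophan-derived ligands.

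What each array value stands for is a stretch of transcript 60 bases long. The first 30 bases of the probes for the members with the largest differences are shown, 5′ to 3′ and in the sense of the transcript, so that the pair of AHR probes can be told apart. On hg19, the VDR probe lies at chr12:48235502-48235561 on the minus strand, the AHR probes at chr7:17384999-17385058 and chr7:17382763-17382822 on the plus strand, and the NR1H3 probe at chr11:47290221-47290280 on the plus strand. Exon and UTR annotation of hg19 was not used here.
VDR A_23_P162589: caagcgaggtcaacagagaaggcaggaatg
AHR A_23_P215566: aatggcttcggacaaaatatctctgagttc
AHR A_33_P3316800: ctgttggacgtcagcaagttcacatggagg
NR1H3 A_33_P3237775: tctgagatctgggatgtgcacgaatgactg

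VDR and AHR were higher after MLL-AF9 knockdown, the liver X receptor NR1H3 had lower values that narrowly missed the threshold, and the RXR, RAR and PPAR genes and ARNT did not pass it. A probe was called if its unadjusted p in limma was under 0.005. Of the 14 probes, 2 were called, both of them higher, against 1.32% of all probes in either direction, 0.584% higher and 0.736% lower. Since the members were chosen with earlier results of these data known, these shares and those below describe them and test no excess. With a limit of 0.05 in its place there were 4 member probes, 3 higher and 1 lower, against 8.05% of all probes, 3.15% higher and 4.89% lower. None had a Benjamini-Hochberg adjusted p under 0.05 over all probes, which held for 0.118% of all probes, and the lowest adjusted p among the members was 0.214. Both knockdown arrays lay above both control arrays in 5 member probes (15.2% of all probes) and below them in 2 (21.4% of all probes). These 7 probes compare with 36.6% of all probes, and the groups overlapped in the other 7. The log2 fold change was above 0 in 11 of 14 probes, with a median of 0.07, whereas it was above 0 in 44.5% of all probes, with a median of -0.02. Since RNA was taken from whole cultures, a change in the RNA per cell and a change in the share of cells that express a gene cannot be told apart.

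**Figure D1:**
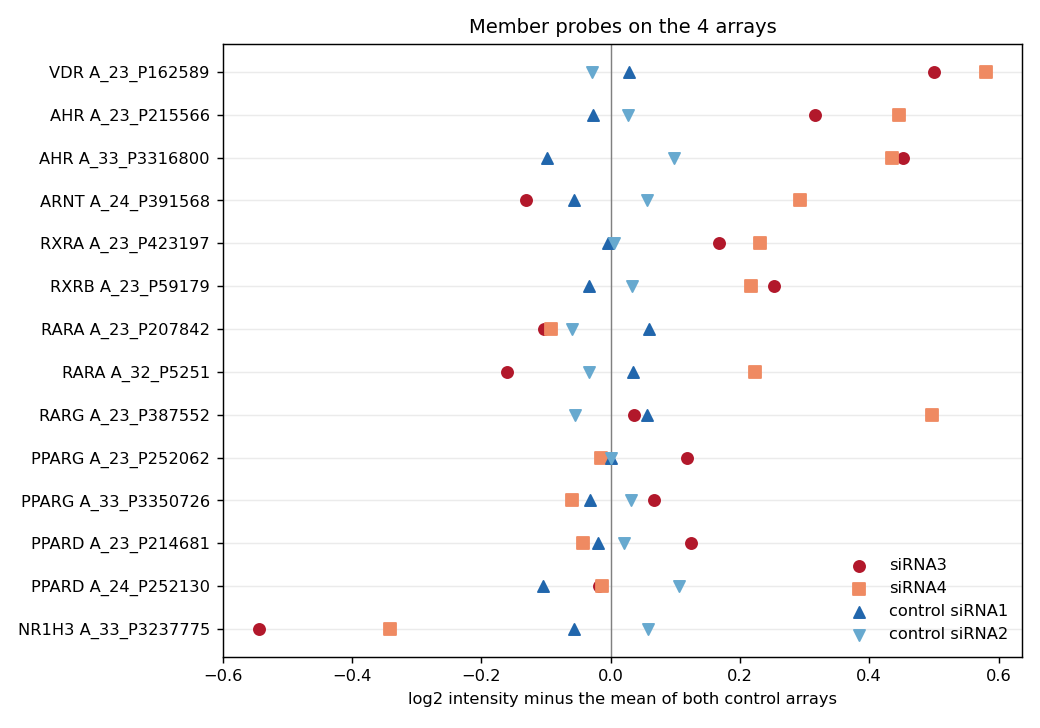
Log2 intensity of each member probe on each array, minus the mean of both control arrays of that probe (x axis), with circles for siRNA3, squares for siRNA4 and triangles for the controls. VDR and both AHR probes lie to the right and NR1H3 to the left of their controls on both knockdown arrays, while ARNT, RARG and RARA A_32_P5251 differ between siRNA3 and siRNA4.

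VDR, the receptor for the hormonal form of vitamin D, had log2 intensities of 11.02 with siRNA3 and 11.10 with siRNA4, and of 10.55 and 10.49 with control siRNA1 and siRNA2. Both knockdown arrays thus lay above both control arrays, and the smallest of the 4 pairwise differences, 0.47, exceeded the 0.08 between the knockdown arrays and the 0.06 between the controls. The log2 fold change was 0.54 (standard error 0.11, 95% interval 0.29 to 0.79, unadjusted p = 0.00100, adjusted p = 0.214 in limma), a 1.45-fold higher signal, and it was above that of 99.4% of all probes. The call was lost with the background-subtracted signal, scaled (0.56) or unscaled (0.53), and when siRNA3 (0.58), siRNA4 (0.50), control siRNA1 (0.57) or control siRNA2 (0.51) was left out.

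The VDR probe was printed on 10 spots of each array, as was one PPARG probe, which allows their spread within an array to be seen. At every one of the 10 VDR spot positions both knockdown arrays gave a higher value than both control arrays. The log2 fold change of single VDR spots ranged from 0.41 to 0.67, with a median of 0.49. For the PPARG probe both knockdown arrays were higher at 4 and lower at 0 of 10 spot positions, and single spots ranged from -0.06 to 0.20. Spots of one array share its RNA and are not replicates of the treatment.

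**Figure D2:**
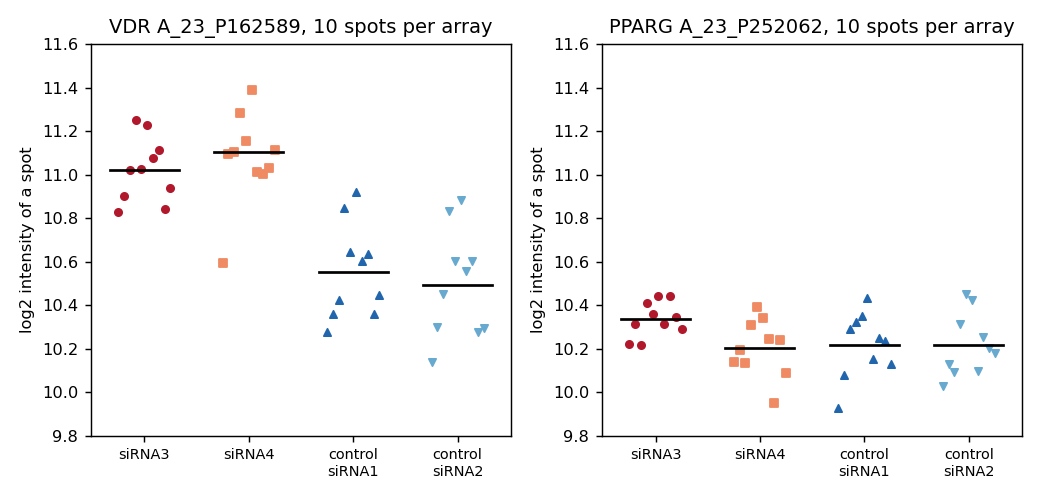
Log2 intensity (y axis) of each of 10 identical spots per array for VDR and for PPARG A_23_P252062, one column of points per array, with a black line at the weighted mean of the array. The VDR means are 11.02 and 11.10 in the knockdown and 10.55 and 10.49 in the control arrays, whereas the PPARG means lie between 10.20 and 10.34 on all of them.

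AHR was measured by a pair of probes that lie at different positions of its transcript, and both gave higher values after knockdown. Probe A_33_P3316800 read 8.44 with siRNA3 and 8.42 with siRNA4, against 7.89 and 8.08 in the controls, so that the groups did not overlap and the knockdown arrays were closer to each other than the controls were. It rose 1.36-fold, or by 0.44 in log2 intensity (standard error 0.12, 95% interval 0.18 to 0.71, unadjusted p = 0.00474, adjusted p = 0.372 in limma). Probe A_23_P215566 read 9.23 and 9.36 with siRNA3 and siRNA4 and 8.89 and 8.94 in the controls, again without overlap. Its log2 fold change of 0.38 (standard error 0.11, 95% interval 0.12 to 0.64, unadjusted p = 0.00865, adjusted p = 0.436) was not called. The call of the former probe was lost with the background-subtracted signal, scaled (0.52) or unscaled (0.49), and without siRNA3 (0.44), siRNA4 (0.45), control siRNA1 (0.35) or control siRNA2 (0.54). The latter probe was called after quantile (0.41) or cyclic loess (0.41) normalization and after normexp background correction (0.43).

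The 250 bases before the AHR start site, at chr7:17298402-17298651 on the plus strand of GRCh38.p14 from RefSeq, are shown because AHR is the called member whose window is in the table used. Capitals mark GGGCGG, the core that Sp1-type factors bind, of which there are 4 counting overlaps.
AHR window: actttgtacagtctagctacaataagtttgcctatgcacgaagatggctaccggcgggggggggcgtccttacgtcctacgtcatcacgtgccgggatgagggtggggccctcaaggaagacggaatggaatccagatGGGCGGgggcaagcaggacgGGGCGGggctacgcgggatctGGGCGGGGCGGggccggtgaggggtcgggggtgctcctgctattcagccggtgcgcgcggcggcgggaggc

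The window held 24 CG pairs, where the median of 35116 windows was 11, and 42.6% of all windows contained GGGCGG on either strand. It held neither GCGTG, the core of the AHR-ARNT response element, nor AGGTCA, the half-site of RXR partners, in either strand. These were found in 32.2% and 12.1% of all windows. Of the members, 9 had windows in the table, 21 in all. GCGTG occurred in windows of RXRB, RARA, PPARG, PPARD and NR1H3, and AGGTCA in windows of RARA, PPARG and NR1H3. A match is a description of letters and not a measured binding site.

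ARNT, the shared partner of AHR and of the hypoxia-inducible factors, read 9.93 with siRNA3, 10.35 with siRNA4, and 10.01 and 10.12 in the controls. The siRNA4 array was above and the siRNA3 array below both controls. The log2 fold change was 0.08 (standard error 0.15, 95% interval -0.26 to 0.42, unadjusted p = 0.605 in limma), and it was -0.13 without siRNA4 and 0.29 without siRNA3.

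Of the retinoid X receptors, the common partners of VDR, RARs, PPARs and LXRs, both genes had higher values on both knockdown arrays, but neither was called. RXRA read 14.31 with siRNA3 and 14.37 with siRNA4 against 14.13 and 14.14 in the controls, a log2 fold change of 0.20 (standard error 0.11, 95% interval -0.05 to 0.45, unadjusted p = 0.101, adjusted p = 0.718). RXRB read 9.15 and 9.12 against 8.87 and 8.93, a log2 fold change of 0.24 (standard error 0.11, 95% interval -0.01 to 0.48, unadjusted p = 0.0607, adjusted p = 0.652). In both genes the knockdown and control arrays did not overlap, and the spread between arrays of one group was at most 0.07. Their direction was kept under all 12 alternatives, with 0.17 to 0.27 for RXRA and 0.19 to 0.28 for RXRB.

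The retinoic acid receptors RARA and RARG showed no called change. RARA probe A_23_P207842 read 8.01 with siRNA3 and 8.02 with siRNA4 and 8.17 and 8.06 in the controls, with both knockdown arrays slightly lower (-0.10, 95% interval -0.35 to 0.16, unadjusted p = 0.401). This probe was at -0.04 without control siRNA1 and at -0.16 without control siRNA2. The other RARA probe, A_32_P5251, read 11.05 and 11.43 against 11.24 and 11.17, so that siRNA3 lay below and siRNA4 above both controls (0.03, 95% interval -0.29 to 0.36, unadjusted p = 0.828). For RARG, siRNA4 gave 6.65, whereas siRNA3 with 6.19 fell between the controls with 6.21 and 6.10. The RARG log2 fold change of 0.27 (95% interval -0.09 to 0.62, unadjusted p = 0.125 in limma) came down to 0.04 without siRNA4 and went up to 0.50 without siRNA3.

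PPARG and PPARD, which respond to fatty acids and their derivatives, showed no called change, and knockdown and control arrays overlapped in all 4 probes. PPARG probe A_23_P252062 read 10.34 with siRNA3, 10.20 with siRNA4 and 10.22 in both controls, a log2 fold change of 0.05 (95% interval -0.20 to 0.31, unadjusted p = 0.654). The other PPARG probe, A_33_P3350726, had a difference of 0.00 on the log2 scale (95% interval -0.25 to 0.26). The PPARD probes had differences of 0.04 (A_23_P214681, 95% interval -0.22 to 0.30) and -0.02 (A_24_P252130, 95% interval -0.29 to 0.26). Their intervals still include differences of about the size seen in the RXR genes, so that these arrays do not exclude them.

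NR1H3 (liver X receptor alpha), the oxysterol receptor of macrophages, was the member with the lowest log2 fold change. It read 9.30 with siRNA3 and 9.51 with siRNA4, against 9.79 and 9.91 in the controls, so that both knockdown arrays lay below both controls by 0.28 to 0.60. The log2 fold change was -0.44 (standard error 0.12, 95% interval -0.72 to -0.17, unadjusted p = 0.00569, adjusted p = 0.395 in limma), which corresponds to a 1.36-fold higher signal in the controls and was not called. It was called after quantile (-0.41), cyclic loess (-0.41) or normexp and quantile normalization (-0.40) and when dim probes were left out of the fit. Without any one array it was not called, with values from -0.54 to -0.34.

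**Figure D3:**
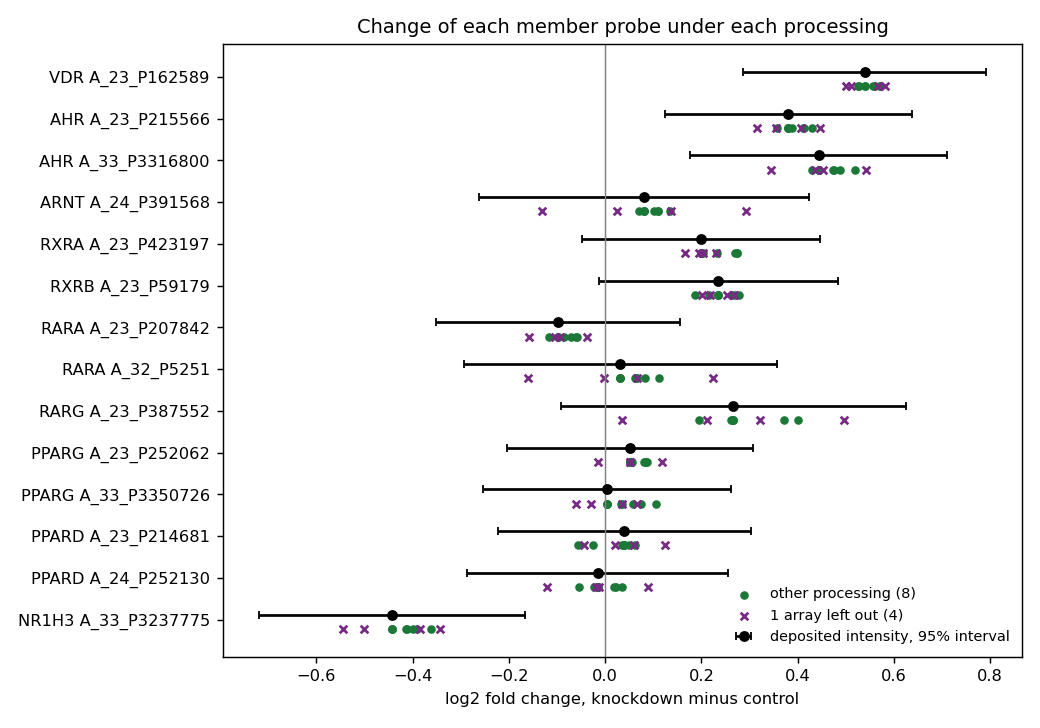
Log2 fold change of each member probe (x axis, knockdown minus control), with the estimate on the deposited intensity and its 95% interval in black, 8 other ways of processing as green circles and 4 fits that leave out 1 array as crosses. VDR, AHR and NR1H3 keep their sign in all of them, whereas ARNT, RARA A_32_P5251, both PPARG and both PPARD probes lie on either side of 0.

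The genes around these receptors were examined on the brightest probe of each gene, in 9 lists of partners, coregulators, ligand enzymes and known targets. Of 121 listed genes 103 had an analysed probe. Among these 103 genes, 3 were called higher and 1 lower, where 0.596% and 0.755% of all genes were called (1.35% in either direction). An unadjusted p under 0.05 was found for 13 of them, 8 higher and 5 lower, against 8.19% of all genes, 3.25% higher and 4.94% lower. Knockdown and control arrays did not overlap for 43 of the 103 genes, against 36.3% of all genes. Each list held at most 1 called gene. All 9 lists were chosen with earlier results of these data known, so that these counts are a description and test no excess.

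Of the 28 other nuclear receptors reported here 0 were called in limma, 2 had an unadjusted p under 0.05, 1 higher and 1 lower, near the 8.19% of all genes, and the median log2 fold change was 0.04. The isotypes closest to the members did not pass the threshold. RARB read 6.35, 6.29, 6.35 and 6.29 with siRNA3, siRNA4, control siRNA1 and control siRNA2. The log2 fold change was -0.17 for RXRG and 0.05 for PPARA, and on the brightest probe of each gene the groups overlapped. The other RXRG probe, well above background on 1 knockdown and 1 control array, was at 0.11 with overlapping groups. The other PPARA probe was at 0.10 without overlap (unadjusted p = 0.403 in limma).

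No gene was called in limma among 9 partners of AHR, where 0 had an unadjusted p under 0.05, or among 15 nuclear receptor coregulators, where 1 did. ARNTL (0.02) and HIF1A (-0.06), which belong to the same protein family as ARNT or pair with it, overlapped between groups. ARNT2 was well above background on both control arrays and on neither knockdown array. Its log2 intensity was 5.43 and 5.49 in the knockdown and 5.55 and 5.46 in the control arrays, which overlap, and no fold is given for it. The p160 coactivators had log2 fold changes of 0.12 (NCOA1), -0.15 (NCOA2) and 0.25 (NCOA3), each without overlap between the groups and with unadjusted p of 0.317, 0.206 and 0.0742 in limma. Without siRNA4 NCOA1 was at 0.06 and NCOA3 at 0.13. The other NCOA1 probe was at 0.03 with overlapping groups (unadjusted p = 0.816 in limma), and the other NCOA2 probe at -0.10 without overlap.

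Enzymes that make or degrade vitamin D and retinoid ligands did not include a called gene in limma either (0 of 12, with 0 at an unadjusted p under 0.05). CYP27B1, which makes the hormonal form of vitamin D, had a log2 fold change of -0.06 and CYP27A1 one of 0.00. CYP24A1, which degrades that hormone and is a sensitive VDR target, was well above background on both control arrays but on neither knockdown array. It read 5.57 and 5.46 with siRNA3 and siRNA4 and 5.67 and 5.58 in the controls (adjusted p = 0.860 in limma), values too near background for a fold. With the unscaled background-subtracted signal CYP24A1 was called lower, again against knockdown arrays on which it was not well above background. CYP26A1, the retinoic acid hydroxylase, was likewise well above background in the controls alone, with 5.49 and 5.41 after knockdown against 5.78 and 5.55 (adjusted p = 0.730 in limma). Over all probes, the lowest log2 intensity well above background was 5.32 with siRNA3 and 5.39 with siRNA4. It was 5.04 and 5.13 in the controls, so that passing in the controls alone (CYP24A1, CYP26A1, ARNT2) is not read as a loss of expression.

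Of 9 VDR target genes 1 was called. This was CD14, the lipopolysaccharide co-receptor of monocytes, with 8.39 for siRNA3 and 8.71 for siRNA4 against 7.52 and 7.47 in the controls, without overlap. It rose 2.07-fold (adjusted p = 0.0357), and its call was lost without control siRNA2 (1.03 in log2). Like the other lists, this one was chosen with earlier results of these data known, among them the rise of CD14. CAMP, the antimicrobial cathelicidin and a direct VDR target in humans, read 8.16 and 8.38 against 7.66 and 7.96 and was not called (0.46, standard error 0.14, unadjusted p = 0.00994), except after normexp and quantile normalization (0.45). The median of the list was 0.01.

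Of 8 AHR target genes 1 was called. This was SERPINB2, a protease inhibitor of activated monocytes, which read 9.55 with either knockdown siRNA and 8.75 and 8.72 in the controls. It rose 1.76-fold, a difference of 0.82 in log2 intensity with an adjusted p of 0.0407, and had an unadjusted p under 0.005 in limma under all 12 alternative settings, with 0.80 to 0.94. Its adjusted p, like that of CD14, was not under 0.05 in those settings that changed the signal, normalized the arrays or left one out. The cytochrome P450 genes that are the classical readout of AHR did not pass the threshold and overlapped between groups: the log2 fold change was 0.10 for CYP1A1, 0.13 for CYP1B1 and -0.02 for CYP1A2. CYP1B1 was at 0.03 without siRNA4 and 0.24 without siRNA3, and its other probe, at 0.17, did not overlap between groups (unadjusted p = 0.178 in limma). The median of the list was 0.12.

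Of 9 RAR target genes 1 was called, STRA8, which is known from germ cells and read 6.09 with siRNA3 and 6.48 with siRNA4 against 6.86 and 6.79 in the controls, with no overlap. It fell by 0.54 on the log2 scale (standard error 0.14, unadjusted p = 0.00458, adjusted p = 0.365 in limma). Its call was lost after quantile (-0.54), cyclic loess (-0.54) or normexp normalization (-0.39), with the background-subtracted signal, scaled (-0.75) or unscaled (-0.78), and without siRNA3 (-0.35), control siRNA1 (-0.51) or control siRNA2 (-0.58). TGM2, the tissue transglutaminase, was well above background on the siRNA3 array alone (6.21), where siRNA4 gave 5.09 and control siRNA2 4.95. Of the settings tried, it was called only when siRNA4 was left out, which leaves siRNA3 as the lone knockdown array, and with 1 of 4 arrays above background no fold is given. The median of the list was 0.00.

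Of 8 PPAR target genes 1 was called. This was LPL, the lipoprotein lipase, with 9.81 for siRNA3 and 9.56 for siRNA4 against 8.87 and 9.09 in the controls. LPL rose 1.63-fold (log2 fold change 0.71, standard error 0.13, adjusted p = 0.178), and the groups did not overlap. Its call was lost with the background-subtracted signal, scaled (0.70) or unscaled (0.67), and without siRNA3 (0.58), siRNA4 (0.83), control siRNA1 (0.59) or control siRNA2 (0.82). PDK4, which inhibits pyruvate dehydrogenase, and CD36, a scavenger receptor and fatty acid transporter, also had higher values on both knockdown arrays, by 0.48 (unadjusted p = 0.00702) and 0.44 (unadjusted p = 0.00895), and were not called, except PDK4 when dim probes were left out of the fit. With 1 array left out, PDK4 ranged from 0.31 to 0.65 and CD36 from 0.31 to 0.55. PLIN2, which coats lipid droplets, was at -0.04 with overlapping groups.

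None of 10 LXR target genes was called in limma, 0 had an unadjusted p under 0.05, and the median log2 fold change was 0.02. The cholesterol exporter ABCA1 read 7.67 with siRNA3 and 8.58 with siRNA4 against 8.07 and 7.43 in the controls. The siRNA4 array was the highest and control siRNA2 the lowest, and its log2 fold change of 0.38 had a standard error of 0.29. It was -0.08 without siRNA4, 0.06 without control siRNA2, 0.70 without control siRNA1 and 0.83 without siRNA3. SREBF1, the regulator of fatty acid synthesis, had a log2 fold change of -0.03. ABCG1 was well above background on 1 control array only, with overlapping groups.

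**Figure D4:**
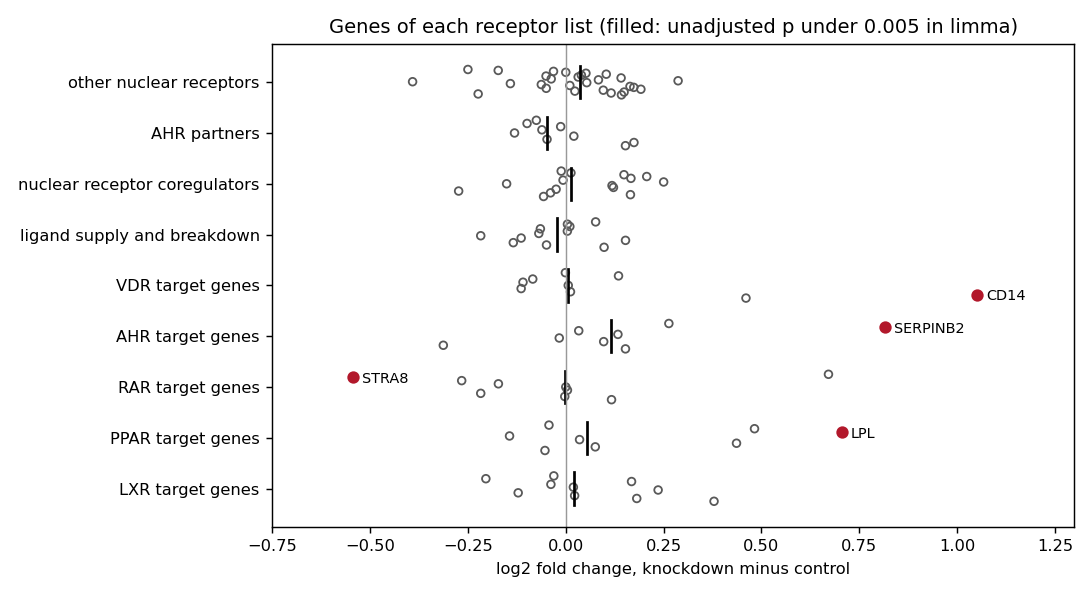
Log2 fold change (x axis) of every analysed gene of the 9 lists, 1 circle per gene and list, with filled circles for called genes and a vertical line at the median of each list. The medians lie between -0.05 and 0.12, and the 4 called genes, CD14, SERPINB2, LPL and STRA8, lie at the edges of their lists.

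As a check of the labels, both probes of MLLT3, the gene that gives the fusion its AF9 part, were lower on both knockdown arrays than on both controls, with log2 fold changes of -0.76 and -0.63. Of 4 probes of MLL, the partner gene of MLLT3 in the fusion, 1 was lower on both knockdown arrays (-0.41), and in 3 the groups overlapped (-0.08, -0.03 and 0.05). All 7 measured monocytic markers of 9 listed were well above background on all 4 arrays. Of these 7 markers, CD14 was called higher, 4 had a log2 fold change below 0, and both knockdown arrays lay above both controls in 2 and below them in 3 (15.2% and 21.1% of all genes), with a median of -0.11. Their summed intensity was 22045 and 24695 in the knockdown and 24482 and 24508 in the control arrays. Of 12 measured markers of other cell types, 8 were well above background on all 4 arrays, the others being MS4A1, HBB, COL1A2 and ADIPOQ, and the summed intensity was 8175 and 9481 in the knockdown and 8321 and 9527 in the control arrays. Of these markers 1 was called, the adipocyte gene ADIPOQ, which was above background on 1 knockdown array only. At an unadjusted p under 0.05 in limma 3 of the 12 were higher and 0 lower, against 3.25% and 4.94% of all genes, and both knockdown arrays lay above both controls in 4 and below them in 0, against 15.2% and 21.1%. The part of other cell types in the changes of the receptors was not tested. Knockdown arrays had 70.0% and 71.2% of their spots well above background and either control array 74.3%.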

How the data were processed

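Gene expression was measured in 2 knockdown and 2 control pools of THP1 cells on single-colour Agilent 4x44K arrays. The authors extracted spots with Agilent Feature Extraction 10.5.1.1 and deposited an intensity per spot, identical to the median of the spot's pixels for 100% of spots, and a quality score (weight) per spot. Per the labels and the study's methods, no background was subtracted from the deposited intensity and arrays were not normalized to each other, so that differences in labelling or scanning between arrays remain in it. How the weights were set is not given in the sources used here.

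Of 43118 spots other than controls, 33323 with a weight above 0 on all arrays were analysed. Gene names were taken from the scanner tables, since 36 names of the intensity table had been turned into dates. Log2 intensities of identical spots were averaged with their weights and the resulting 26219 probes entered a model without covariates over all 4 arrays (limma 3.58.1 under R 4.3.3). Probes were called at an unadjusted p under 0.005, the first of the criteria in the study's methods; the second, a test over the identical spots of a probe, was not applied, and p adjusted by Benjamini-Hochberg over all probes are given as well, all two-sided. The members and the gene lists were chosen with earlier results of these data known. Every member probe is named, and of each list the called genes and the first 3 with an analysed probe. One listed gene is not reported here and stands in no count over the lists. Alternatives were other signals, normalizations, weights and filters, and leaving out each array. The fit was run on simulated data as a check of the code, which is no test of the calls made here. No depth exists for arrays, and their number limits the precision.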

Additional observations from a re-analysis of the deposited data

How the results depend on the processing

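No paired analysis was made, since each array held a pool of 5 experiments and no label links a knockdown array to a control array. All 12 alternatives kept the direction of VDR, both AHR probes, RXRA, RXRB, RARA A_23_P207842, RARG and NR1H3, and the 2 member probes called became 0 with the background-subtracted signal, scaled or unscaled, 0 at an adjusted p under 0.05 and 0 without any one array, whereas they became 4 after quantile, cyclic loess or normexp and quantile normalization. The count of 4 called genes in the lists became 2 when the background-subtracted signal was scaled, 2 at an adjusted p under 0.05, 3 on the unscaled background-subtracted signal or after quantile or cyclic loess normalization, 5 when dim probes were left out, and 1 to 4 without any one array, with 1 without control siRNA2, 2 without control siRNA1 and 2 without siRNA3. Without siRNA4 it stayed at 4 with LPL lost and TGM2 gained, after normexp and quantile normalization with STRA8 lost and CAMP gained, and the 3 on the unscaled signal include CYP24A1. The cause was not tested. Leaving out an array leaves 1 in its group, whose variance is then taken from the remaining group, and fewer arrays alone raise p.

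Directions that turned were all of differences that were not called. With 1 array left out, the log2 fold change ranged from -0.13 to 0.29 for ARNT, -0.16 to 0.22 for RARA A_32_P5251, -0.014 to 0.12 for PPARG A_23_P252062, -0.060 to 0.067 for PPARG A_33_P3350726, -0.044 to 0.12 for PPARD A_23_P214681 and -0.12 to 0.090 for PPARD A_24_P252130. It ranged from -0.032 to 0.032 for RARB, -0.37 to 0.021 for RXRG, -0.15 to 0.25 for PPARA, -0.074 to 0.12 for ARNTL, -0.15 to 0.031 for HIF1A, -0.14 to 0.0063 for CYP27B1, -0.10 to 0.11 for CYP27A1, -0.012 to 0.21 for CYP1A1, -0.079 to 0.046 for CYP1A2, -0.11 to 0.024 for PLIN2, -0.076 to 0.83 for ABCA1 and -0.12 to 0.062 for SREBF1. On the background-subtracted signal PPARD A_23_P214681 was at -0.026 scaled and -0.056 unscaled, and CYP27A1 at -0.095 scaled and -0.13 unscaled. PPARD A_24_P252130 was at 0.022 after quantile, 0.020 after cyclic loess and 0.035 after normexp normalization. After quantile normalization RARB was at 0.0044, CYP1A2 at 0.0030 and SREBF1 at 0.013, the last at 0.012 after cyclic loess. After normexp normalization RARB was at 0.0072, CYP27A1 at -0.021, PLIN2 at 0.00035 and ABCG1 at -1.86e-06.

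Slide position and treatment cannot be told apart, each siRNA had 1 array, and probes near background (CYP24A1, CYP26A1, ARNT2, TGM2, ABCG1) give no reliable fold.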

Other observations

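Outside the members, a few receptors and targets had an unadjusted p between 0.005 and 0.05 in limma, given here as values. The orphan receptor NR2F1 had a log2 fold change of -0.39 (unadjusted p = 0.00787) and its paralog NR2F2 one of 0.29 (unadjusted p = 0.0382), in each case with both knockdown arrays beyond both controls. GPS2, a subunit of the NCOR corepressor complex, was at -0.27 (unadjusted p = 0.0421), the retinoid-induced RARRES3 at -0.27 (unadjusted p = 0.0488) and the AHR target ALDH3A1 at -0.31 (unadjusted p = 0.0273), all without overlap between the groups. These genes were chosen after their values were seen.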
